A study of Mus musculus with 6 samples.

Results

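The genes described here are 10 markers of the endothelium, the cell layer that lines blood vessels: Pecam1, Cdh5, Esam, Kdr, Flt1, Tek, Tie1, Vwf, Egfl7 and Emcn. They were chosen by symbol, and each matched 1 row of a deposited table of 47729 genes. All 10 were among the 17023 genes with enough counts to be tested. RNA was sequenced from the epidermis of wild-type C57BL/6 mice whose skin was treated with a gel holding AKBA (AKBA gel, 3 libraries) or with a blank gel (control gel, 3 libraries). The design sets the AKBA gel against the blank gel. AKBA stands in common use for acetyl-11-keto-β-boswellic acid, one of the triterpenoids in Boswellia resin. The control libraries are described with the letters IMQ, an abbreviation left unexplained by the labels, and no source used here says whether the skin had another treatment. The labels give no age of the mice and do not say whether the 3 libraries per group are 3 animals, so every p-value here measures library-to-library spread only, and that spread may be technical.

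Endothelial cells are held together by homophilic adhesion proteins at their junctions, respond to vascular endothelial growth factors (VEGF) and angiopoietins through receptor tyrosine kinases, and store clotting proteins for release. In skin the blood vessels run in the dermis and below it, and the epidermis itself is free of vessels. Per the labels' protocols Dispase II, a protease, was used to lift the epidermis off the dermis before RNA extraction. The 10 markers were nevertheless measured in every library, with 183 to 3391 counts per gene and library. Together they took 513, 430 and 560 CPM (the count after each library is brought to the same TMM-scaled size) in control gel replicates 1 to 3, and 446, 261 and 399 CPM in AKBA gel replicates 1 to 3. AKBA gel replicate 2 was the lowest of the 6, and AKBA gel replicate 1 lay above control gel replicate 2, so the groups overlapped.

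The libraries held 19066045 to 22760432 counts. No pair of libraries within a group agreed to within counting noise, the ratio of chi-square to its degrees of freedom being 30.3 to 90.4. Keratinocyte markers summed to 26600 to 64600 CPM for a suprabasal list and 11200 to 33300 CPM for a basal list. A fibroblast list took 24000 to 42600 CPM and a skeletal muscle list 5420 to 9550 CPM, so transcripts of the layers below the epidermis were present in all 6 libraries. In such bulk samples fewer endothelial cells and less RNA per endothelial cell cannot be told apart.

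The promoters of the growth factor and angiopoietin receptors are shown because these receptor pairs are compared below, gene with gene. RefSeq windows on GRCm38.p6, from 250 bases before to 50 bases after a start site, were found for 6 of the 10 markers. They were searched on both strands for 7 short motifs: CAGGAA (a core bound by ETS factors, a family central to endothelial transcription), its variant CCGGAA (also bound by ETS factors), AGATAA (bound by zinc finger factors of the GATA family), TAAACA (bound by forkhead factors), ACAATG (bound by SOX factors), GGGCGG (the motif bound by SP1 and its relatives) and TATAAA (the core promoter element bound by TBP). No matches overlap in the windows printed here. Matches stand in capitals, read along the gene's own strand, so that a match on the other strand appears as its reverse complement.
Kdr (chr5:75978406-75978705, minus strand): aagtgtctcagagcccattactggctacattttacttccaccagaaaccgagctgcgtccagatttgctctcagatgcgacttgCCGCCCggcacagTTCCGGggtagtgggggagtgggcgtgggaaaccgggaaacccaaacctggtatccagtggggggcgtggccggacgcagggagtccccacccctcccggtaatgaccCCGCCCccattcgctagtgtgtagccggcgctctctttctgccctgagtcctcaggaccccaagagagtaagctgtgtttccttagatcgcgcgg
Flt1 (chr5:147725962-147726261, minus strand): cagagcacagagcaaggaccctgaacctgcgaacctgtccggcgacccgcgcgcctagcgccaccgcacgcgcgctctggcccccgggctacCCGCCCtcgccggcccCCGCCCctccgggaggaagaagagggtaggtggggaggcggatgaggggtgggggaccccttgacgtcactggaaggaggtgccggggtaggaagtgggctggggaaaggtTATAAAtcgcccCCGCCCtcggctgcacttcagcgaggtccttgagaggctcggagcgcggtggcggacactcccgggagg
Tek (chr4:94739039-94739338, plus strand): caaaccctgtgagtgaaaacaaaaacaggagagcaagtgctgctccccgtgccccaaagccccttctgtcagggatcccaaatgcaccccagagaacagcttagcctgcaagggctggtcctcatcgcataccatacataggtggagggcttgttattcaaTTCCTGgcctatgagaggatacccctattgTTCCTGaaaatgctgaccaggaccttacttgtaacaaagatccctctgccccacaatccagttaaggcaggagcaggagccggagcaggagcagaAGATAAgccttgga
Tie1 (chr4:118489800-118490099, minus strand): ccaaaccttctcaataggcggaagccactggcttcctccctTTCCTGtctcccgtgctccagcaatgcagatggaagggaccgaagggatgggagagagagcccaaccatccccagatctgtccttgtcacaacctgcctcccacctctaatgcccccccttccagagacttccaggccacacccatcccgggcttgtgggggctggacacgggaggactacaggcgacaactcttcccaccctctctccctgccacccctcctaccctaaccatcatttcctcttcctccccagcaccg
The Kdr window held CCGGAA, which 14.9% of all 32851 windows hold, and 2 matches of GGGCGG. The Flt1 window held 3 matches of GGGCGG, a motif of 35.7% of windows. It also held TATAAA, a motif of 13.6% of windows, 31 bases before the start site. Neither CAGGAA nor CCGGAA occurred in the Flt1 window, and other sequences that ETS factors bind were not searched. CAGGAA, held by 30.6% of windows, occurred in the Tek and Tie1 windows and in windows of Egfl7 and Emcn. AGATAA (11.2% of windows) occurred in the Tek window alone among the markers, and TAAACA (13.4%) and ACAATG (12.6%) in none of them. These matches describe letters only.

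Across the comparison of AKBA gel with control gel, every one of the 10 markers had a lower mean with AKBA gel, where 49.6% of all genes tested had a log2 fold change below 0. The log2 fold changes ran from -0.63 for Flt1 to -0.16 for Kdr, with a median of -0.41 beside 0.00 for all genes tested. None of the 10 passed the threshold, an adjusted p of 0.05 in edgeR's quasi-likelihood test with Benjamini-Hochberg adjustment over all genes. That test called 0% of the 17023 genes, although 2291 of them (13.5%) had an unadjusted p below 0.05. By DESeq2 285 of 16028 genes (1.78%) were called, and again none of the 10 markers. At an unadjusted p below 0.05 by edgeR 4 of the 10 were lower with AKBA gel, beside 7.01% of all genes. The same 4 (Pecam1, Cdh5, Esam and Flt1) were those in which all AKBA values were under all control values, beside 9.1% of all genes (18.4% in either direction). These genes share a cell type, so their counts are not independent of each other. The 4 are named by their values, and the number at an unadjusted p below 0.05 was 2 without control gel replicate 1 and 1 without control gel replicate 3. The share of all genes was not counted in those fits.

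**Figure D1:**
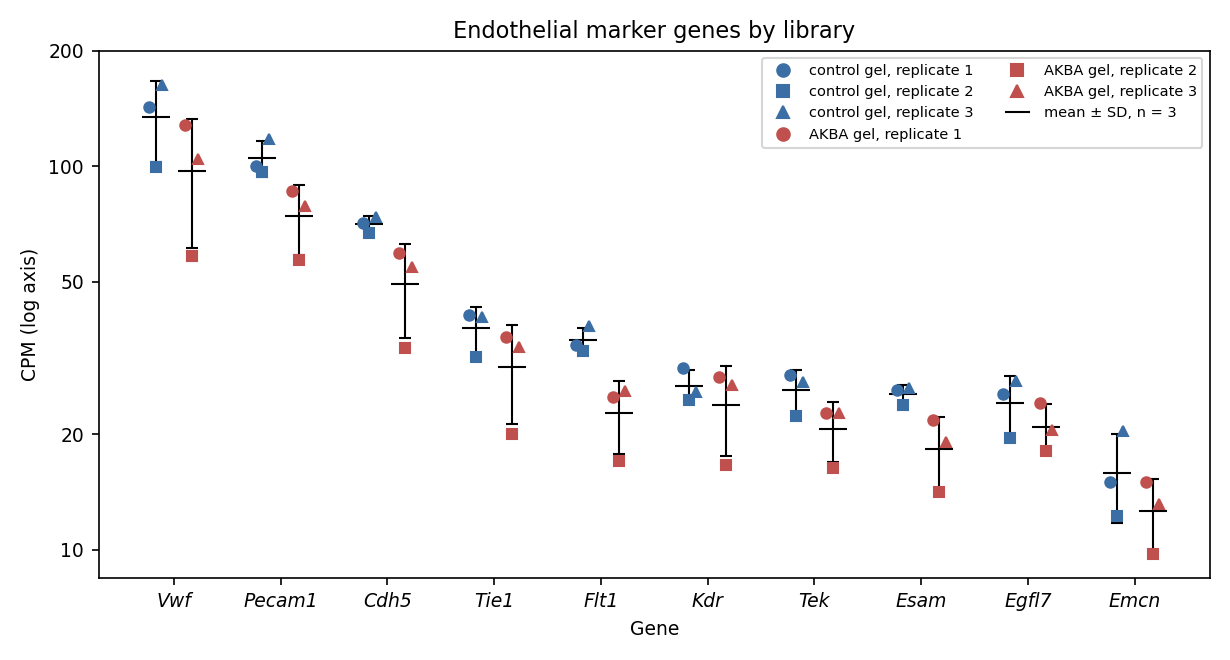
CPM on a log axis for the 10 endothelial markers, 1 point per library (shape gives the replicate, blue control gel, red AKBA gel), with black bars for the mean and SD of 3 libraries. The red square, AKBA gel replicate 2, is the lowest point for all 10 genes, and the groups do not overlap for Pecam1, Cdh5, Flt1 and Esam.

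Of the junction and adhesion proteins, none overlapped between the groups. Pecam1 (CD31, ENSMUSG00000020717, chr11:106654217-106750628), a homophilic adhesion protein of endothelial junctions that platelets and leukocytes also carry, stood at 100.1, 96.8 and 118 CPM in control gel replicates 1 to 3. With AKBA gel it stood at 86.3, 56.98 and 78.8 CPM in replicates 1 to 3. No AKBA value reached the lowest control value, and AKBA gel replicate 2 was farthest down. The AKBA mean was 74.0 ± 15.3 CPM and the control mean 105 ± 11.3 CPM (SD, n = 3 each), a log2 fold change of -0.50 ± 0.17 (SE, edgeR adjusted p = 0.339).

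Cdh5 (VE-cadherin, ENSMUSG00000031871, chr8:104101625-104144511), the cadherin of endothelial adherens junctions, stood at 71.0, 67.0 and 73.7 CPM in the control libraries and at 59.2, 33.6 and 54.7 CPM in the AKBA libraries. The 3 control values lay close together, at 70.6 ± 3.37 CPM, while the AKBA values spread over 49.2 ± 13.6 CPM (SD, n = 3 each). The groups did not overlap, and the log2 fold change was -0.52 ± 0.20 (SE, edgeR adjusted p = 0.349). Esam (ENSMUSG00000001946, chr9:37528078-37538319), an immunoglobulin-type adhesion protein of endothelial tight junctions and platelets, stood at 26.0, 23.8 and 26.4 CPM with control gel and at 21.7, 14.1 and 19.1 CPM with AKBA gel. Its groups did not overlap either, with a log2 fold change of -0.47 ± 0.17 (SE, edgeR adjusted p = 0.339).

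Of the VEGF receptors, Flt1 did not overlap between the groups and Kdr did. Flt1 (VEGF receptor 1, ENSMUSG00000029648, chr5:147561604-147726011), which binds VEGF tightly, signals weakly and in its soluble form holds the ligand away from Kdr, stood at 34.2, 33.0 and 38.3 CPM with control gel. With AKBA gel it stood at 24.97, 17.1 and 26.0 CPM, all below the lowest control library. Its mean with AKBA gel was 64.5% of the control mean, and its log2 fold change of -0.63 ± 0.17 (SE, edgeR adjusted p = 0.331, DESeq2 adjusted p = 0.0629) was the largest in size of the 10. Kdr (VEGF receptor 2, ENSMUSG00000062960, chr5:75932827-75978458), the main signalling receptor for VEGF in blood endothelium, stood at 29.8, 24.5 and 25.7 CPM with control gel and at 28.1, 16.6 and 26.8 CPM with AKBA gel. AKBA gel replicates 1 and 3 lay inside the range of the control libraries and only AKBA gel replicate 2 lay below it. The log2 fold change of Kdr was -0.16 ± 0.20 (SE, edgeR adjusted p = 0.766).

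Tek (TIE2, ENSMUSG00000006386, chr4:94739289-94874976), the receptor of the angiopoietins, stood at 28.6, 22.3 and 27.4 CPM with control gel and at 22.7, 16.3 and 22.7 CPM with AKBA gel. AKBA gel replicates 1 and 3 lay just above control gel replicate 2, so the groups overlapped, and the log2 fold change was -0.34 ± 0.17 (SE, edgeR adjusted p = 0.426). Its relative Tie1 (ENSMUSG00000033191, chr4:118471191-118490061), an orphan receptor that pairs with TIE2, stood at 40.9, 31.7 and 40.5 CPM with control gel and at 35.9, 19.98 and 33.7 CPM with AKBA gel. Control gel replicate 2 lay below 2 AKBA libraries, and the log2 fold change was -0.34 ± 0.23 (SE, edgeR adjusted p = 0.542).

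The secreted and surface glycoproteins overlapped between the groups. Vwf (von Willebrand factor, ENSMUSG00000001930, chr6:125546774-125686679), the platelet-binding protein stored in endothelial granules, had the widest spread of the 10. It stood at 142, 99.5 and 162 CPM with control gel and at 128, 58.3 and 104 CPM with AKBA gel, with a log2 fold change of -0.48 ± 0.30 (SE, edgeR adjusted p = 0.518). Emcn (endomucin, ENSMUSG00000054690, chr3:137341067-137432185), a mucin-like protein of veins and capillaries, stood at 15.0, 12.2 and 20.4 CPM with control gel and at 15.0, 9.73 and 13.1 CPM with AKBA gel. AKBA gel replicate 1 and control gel replicate 1 were level, and the log2 fold change was -0.33 ± 0.23 (SE, edgeR adjusted p = 0.567). Emcn had the fewest counts, 183 in AKBA gel replicate 2, where counting error alone is 7.39% of the value.

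Egfl7 (ENSMUSG00000026921, chr2:26580014-26593120), a secreted matrix protein of endothelium whose gene also holds the microRNA Mir126a, stood at 25.4, 19.5 and 27.6 CPM with control gel and at 24.1, 18.1 and 20.4 CPM with AKBA gel. The groups overlapped, and the log2 fold change was -0.21 ± 0.17 (SE, edgeR adjusted p = 0.617). The 3′ end of Egfl7 overlaps Agpat2 on the opposite strand in GENCODE M21, and Cdh5 overlaps the antisense gene Gm29682. Egfl7 also overlaps the protein-coding gene Gm20532 on the same strand, which had 0 counts over the 6 libraries. Counting by strand is not stated and would not separate genes on the same strand, so reads from these overlaps cannot be told apart. In the authors' deposited table the log2 fold changes of the 10 markers ran from -0.55 for Flt1 to -0.10 for Kdr, and none was marked as significant there, the lowest adjusted value being 0.0904 for Flt1 in the authors' deposited table. The authors' deposited table marked 273 of its 47729 genes (0.572%).

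The size of these differences rested in part on a single library. AKBA gel replicate 2 was the lowest of the 6 libraries for all 10 markers, where it was the lowest for 21.8% of all genes tested. Control gel replicate 2 was in turn the lowest control library for all 10, while the highest library was control gel replicate 3 for 7 and control gel replicate 1 for 3. Without AKBA gel replicate 2 the median log2 fold change of the 10 markers was -0.21, against -0.41 with all libraries. Kdr then had a log2 fold change of 0.04 ± 0.13 (SE, edgeR adjusted p = 0.962), and the other 9 stayed below 0, from -0.46 for Flt1 to -0.12 for Egfl7 and Tie1. The 4 markers without overlap were still Pecam1, Cdh5, Esam and Flt1, beside 11.7% of all genes compared in that way, and the same 4 had an unadjusted p below 0.05, beside 3.76% of all genes. Their edgeR adjusted p was then 0.677 each. In AKBA gel replicates 1 and 3 both values exceeded control gel replicate 2 for 6 of the 10 markers.

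**Figure D2:**
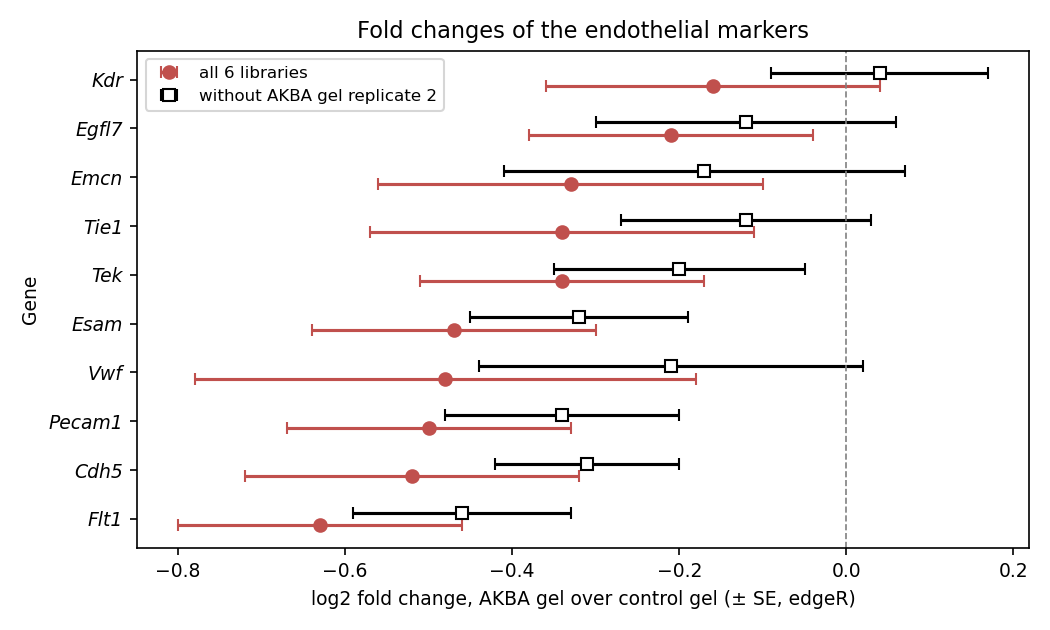
Log2 fold change (AKBA gel relative to control gel) with its SE for each endothelial marker, from all 6 libraries (red circles) and without AKBA gel replicate 2 (open squares). Flt1 is lowest in both fits (-0.63 and -0.46), and Kdr moves from -0.16 to 0.04.

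Levels per transcript length were taken from the deposited FPKM values (fragments scaled by transcript length and library size) to set the genes against each other. Over the 6 libraries Cdh5 (15.0 ± 3.58 FPKM) and Pecam1 (14.3 ± 3.02 FPKM) were highest (SD, n = 6). Cdh5 exceeded Pecam1 in 4 of 6 libraries, so their order did not hold throughout. Pecam1 exceeded the next gene, Esam (7.62 ± 1.56 FPKM), in 6 of 6. Esam, Vwf (7.17 ± 2.09 FPKM), Tie1 (6.86 ± 1.52 FPKM) and Egfl7 (6.27 ± 0.871 FPKM) stood in different orders in different libraries. Tek followed at 4.94 ± 0.908 FPKM, below Egfl7 and above Kdr in 6 of 6 libraries. Kdr (2.80 ± 0.554 FPKM), Emcn (2.61 ± 0.556 FPKM) and Flt1 (2.14 ± 0.542 FPKM) were lowest, each above the next in 5 of 6.

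Count ratios between markers of the same library do not depend on how libraries are scaled. The count ratio of Kdr to Flt1 was 0.869, 0.743 and 0.672 with control gel and 1.13, 0.972 and 1.03 with AKBA gel. Every AKBA library had the higher ratio, AKBA gel replicate 2 included, and the mean log2 ratio differed by 0.458 (exact 2-sided permutation p = 0.1, the smallest that 3 against 3 libraries can give). Per length, in FPKM, Kdr exceeded Flt1 by 1.45 to 1.68 times with AKBA gel and stood at 1.0 to 1.3 times Flt1 with control gel. Of the 45 ratios among the 10 markers 9 did not overlap between the groups, in either direction, and 18.5% of all gene pairs did the same, so the number of such ratios was near the background. The Kdr to Flt1 ratio was singled out after its values were seen. The FPKM ratio of Tie1 to Tek overlapped, at 1.37 to 1.42 with control gel and 1.17 to 1.51 with AKBA gel.

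Further genes of endothelial cells were mostly lower with AKBA gel as well, and none was called by edgeR. Of 28 other receptors and signalling genes tested 26 had a log2 fold change below 0 (median -0.31), and 9 lay without overlap below the controls, where 9.1% of all genes did so. The most abundant, Notch1 and Nrp2, are not specific to endothelium and had log2 fold changes of 0.04 ± 0.19 and -0.04 ± 0.26 (SE), and that of the TNF receptor Tnfrsf1a was -0.40 ± 0.14 (SE, edgeR adjusted p = 0.339). Of 33 other surface and junction genes 31 were below 0 (median -0.31), and 10 lay without overlap below the controls, beside the same 9.1% of all genes. The most abundant of these were the fatty acid carrier Fabp4 (261 ± 22.4 with AKBA gel against 287 ± 64.3 CPM), the caveolar coat protein Cav1 (255 ± 25.8 against 271 ± 24.2 CPM) and Cd34 (173 ± 15.4 against 164 ± 17.9 CPM, SD, n = 3 each). DESeq2 called 4 of the 33 as lower with AKBA gel, Ctla2a, Procr (the endothelial protein C receptor), the water channel Aqp1 and thrombomodulin, Thbd, where it called 1.26% of all genes as lower. Their DESeq2 adjusted p were 0.000387, 0.0099, 0.0246 and 0.0476, and they are named by their values. Ctla2a and Aqp1 were lowest in AKBA gel replicate 2, as the 10 markers were. Procr and Thbd were instead lowest in AKBA gel replicate 3, and their lowest control library was control gel replicate 1. Thbd overlapped between the groups. Fabp4 is also counted among the adipocyte genes below. Which cells these transcripts came from was not tested. Without AKBA gel replicate 2 the medians of the receptor and surface lists were -0.16 and -0.19.

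Transcription factors and ligands had medians nearer to 0. Of 27 endothelial transcription factors 25 were tested, 17 were below 0, and the median was -0.10 (-0.05 without control gel replicate 1). The most abundant, Klf4 (443 ± 79.6 with AKBA gel against 587 ± 192 CPM, SD, n = 3 each), is also a keratinocyte factor. Ets2 and Epas1 had log2 fold changes of -0.08 ± 0.12 and -0.07 ± 0.12 (SE), and Etv2 had at most 1 count per library. By DESeq2 only the ETS factor Elk3 was called in this list (26.8 ± 4.73 against 46.1 ± 11.1 CPM, SD, n = 3 each, DESeq2 adjusted p = 0.0397, edgeR adjusted p = 0.331). Of 25 vascular ligands tested 14 were below 0 and the median was -0.10 (-0.02 without control gel replicate 1 and -0.05 without AKBA gel replicate 2). Without overlap 5 of the 25 lay below the controls and 4 above, beside 9.1% of all genes below and 18.4% in either direction. The most abundant were Jag2 (log2 fold change 0.10 ± 0.15), Efnb2 (0.33 ± 0.15) and Slit3 (-0.52 ± 0.27, SE), which all overlapped between the groups.

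The ligand of the VEGF receptors, Vegfa, stood at 80.8, 80.7 and 158 CPM with control gel and at 66.3, 56.3 and 64.2 CPM with AKBA gel. The groups did not overlap, control gel replicate 3 stood apart, and the log2 fold change was -0.77 ± 0.26 (SE, edgeR adjusted p = 0.339). Vegfb, a ligand of Flt1, stood the other way, at 18.1, 14.5 and 14.4 CPM with control gel and 18.7, 24.9 and 22.5 CPM with AKBA gel (log2 fold change 0.49 ± 0.16 (SE), edgeR adjusted p = 0.334). Angpt2, the angiopoietin released by endothelium itself, was at 6.46 ± 1.97 against 9.11 ± 1.20 CPM and Angpt1 at 5.44 ± 0.901 against 6.21 ± 2.38 CPM (SD, n = 3 each). DESeq2 called Adm2 and Adm, peptides of the adrenomedullin family, as lower (adjusted p = 0.0116 and 0.0496), both without a call by edgeR. They were the only ligands of the 25 that it called, where it called 1.26% of all genes as lower. Adm2 had a low level, 0.835 ± 0.144 CPM with AKBA gel against 2.89 ± 1.2 CPM (SD, n = 3 each). These 6 ligands were chosen after their values were seen.

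Genes for the capture of leukocytes by activated endothelium had a median of -0.65 over 8 genes tested (-0.52 without AKBA gel replicate 2), 7 of them below 0. The median was -0.41 with no low-count filter, which brings in the 2 genes of the list with few counts, Madcam1 and Glycam1. Vcam1, which binds leukocyte integrins, had means of 8.72 ± 1.49 CPM (AKBA gel) and 15.1 ± 1.0 CPM (control gel) without overlap (SD, n = 3 each). Its log2 fold change was -0.79 ± 0.16 (SE, edgeR adjusted p = 0.331), and it was the only gene of this list that DESeq2 called (adjusted p = 0.00842). Icam1 was at 23.7 ± 3.84 against 33.7 ± 4.23 CPM and the membrane-bound chemokine Cx3cl1 at 15.7 ± 0.0541 against 13.3 ± 1.94 CPM (SD, n = 3 each). Without overlap 4 of the 8 genes lay below the controls and 1, Cx3cl1, above, beside 9.1% of all genes below and 18.4% in either direction. P-selectin, Selp, stood at 7.90, 14.4 and 13.9 CPM with control gel and 7.21, 2.71 and 7.16 CPM with AKBA gel. E-selectin, Sele, overlapped between the groups, with 3.84 ± 1.65 CPM in the AKBA libraries and 7.49 ± 2.45 CPM in the control libraries (SD, n = 3 each). Both selectins are named after their values were seen. Leukocyte markers were lower in the same libraries, with a median of -0.43 over 6 genes (-0.38 without AKBA gel replicate 2), all 6 below 0. Without overlap 4 of the 6 lay below the controls, beside the same 9.1% of all genes. The most abundant were Laptm5, Ptprc (the pan-leukocyte CD45) and Coro1a, with log2 fold changes of -0.53 ± 0.14, -0.48 ± 0.17 and -0.23 ± 0.13 (SE), and DESeq2 called Laptm5 (adjusted p = 0.0421). Icam1 and others of these genes are also expressed outside endothelium. The part of other cells in these values was not tested.

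Markers of the vessel wall and dermis were also low in AKBA gel replicate 2, to differing degrees. For mural cells, the pericytes and smooth muscle cells around vessels, 13 of 15 genes were below 0 with a median of -0.25. AKBA gel replicate 2 was the lowest library for 12 of these 15 genes, for 23 of the 28 endothelial receptors and for 21 of the 33 endothelial surface genes. It was the lowest for 7 of 15 fibroblast, 5 of 12 macrophage, 3 of 9 lymphatic and 0 of 8 suprabasal keratinocyte genes. With each gene centred on its mean over the 6 libraries, the 10 markers averaged -0.622 on the log2 scale in AKBA gel replicate 2, mural genes -0.424, fibroblast genes -0.302 and basal keratinocyte genes -0.0927. Suprabasal keratinocyte genes averaged 0.495 there. Macrophage genes were about as low in AKBA gel replicate 1 (-0.284) as in AKBA gel replicate 2 (-0.28). In control gel replicate 3 the 10 markers averaged 0.355 and the fibroblast genes -0.0561, so these lists did not follow each other in all libraries. Their part in the endothelial values was not tested.

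**Figure D3:**
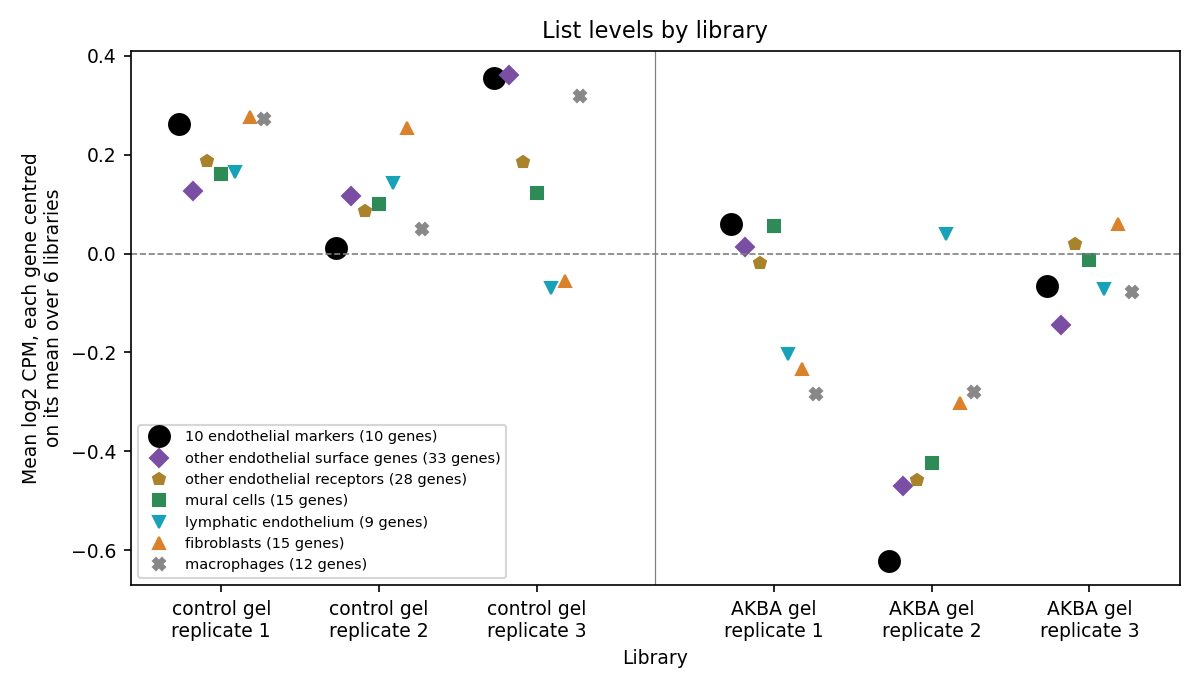
Mean log2 CPM of each list in each library, every gene centred on its mean over the 6 libraries, with 0 as the dashed line. The 10 endothelial markers (black) are lowest in AKBA gel replicate 2 at -0.622 and highest in control gel replicate 3 at 0.355, and the lymphatic list (cyan) is at 0.0396 in AKBA gel replicate 2.

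Among the mural genes Des (494 ± 139 with AKBA gel against 459 ± 185 CPM), Notch3 (163 ± 10.6 against 179 ± 21.2 CPM) and Rgs5 (127 ± 46.0 against 166 ± 30.6 CPM) were the most abundant (SD, n = 3 each). Des is also a skeletal muscle gene. Without AKBA gel replicate 2 the mural median was -0.09. Fibroblast genes had a median of -0.38, with 14 of 15 below 0, and a median of -0.25 without AKBA gel replicate 2 or without control gel replicate 1. Col3a1, Col1a1 and Col1a2 had log2 fold changes of -0.44 ± 0.28, -0.33 ± 0.36 and -0.25 ± 0.33 (SE). Macrophage genes had a median of -0.37, with 12 of 12 below 0, and a median of -0.45 without AKBA gel replicate 2. Without overlap 7 of the 12 lay below the controls, beside 9.1% of all genes. Lyz2, Mrc1 and Csf1r had log2 fold changes of -0.25 ± 0.21, -0.71 ± 0.17 and -0.51 ± 0.19 (SE). Outside the endothelial lists DESeq2 called as lower Fn1 of the fibroblast list (adjusted p = 0.0396) and Mrc1 and Cd163 of the macrophage list (adjusted p = 0.0116 and 0.001). It also called Laptm5 of the leukocyte list, given above, and it called 1.26% of all genes as lower. None of these genes was called by edgeR. The log2 ratio of the summed CPM of the 10 markers to that of the fibroblast genes was -6.38, -6.33 and -5.42 in the control libraries and -5.81, -6.54 and -6.31 in the AKBA libraries, and these ranges overlapped. Against the mural genes this ratio was -1.4, -1.54 and -1.51 in the control libraries and -1.71, -2.14 and -1.61 in the AKBA libraries, without overlap. Against the basal keratinocyte genes and against the lymphatic genes it overlapped. How often such summed ratios separate the groups over all genes was not counted.

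Lymphatic endothelium was less uniform. Of 9 genes 5 were below 0, and the median of -0.43 came to -0.22 without AKBA gel replicate 2, -0.17 without AKBA gel replicate 1, -0.08 without control gel replicate 1 and -0.16 when 5 CPM was required in 3 libraries. The 3 most abundant genes, Tbx1, Pdpn and Sema3d (log2 fold changes 0.33 ± 0.35, -0.89 ± 0.33 and 1.37 ± 0.49, SE), are expressed outside lymphatics too. Prox1, the transcription factor that sets lymphatic identity, was at 2.79 ± 0.832 against 3.76 ± 1.36 CPM (SD, n = 3 each) and is named after its values were seen. Platelets carry Pecam1, Vwf and Esam as well. Of 11 platelet genes 7 had too few counts to be tested, among them Gp9, Gp6 and Treml1 with at most 1 count in any library. The 3 most abundant were Pf4 (25.2 ± 3.46 with AKBA gel against 34.0 ± 8.17 CPM), Gp1bb (11.7 ± 1.71 against 11.2 ± 2.65 CPM) and Itga2b (5.70 ± 0.793 against 8.30 ± 2.67 CPM, SD, n = 3 each). The list summed to 40.0 to 50.1 CPM with AKBA gel and 45.1 to 70.1 CPM with control gel. The part of platelets in the endothelial values was not tested.

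**Figure D4:**
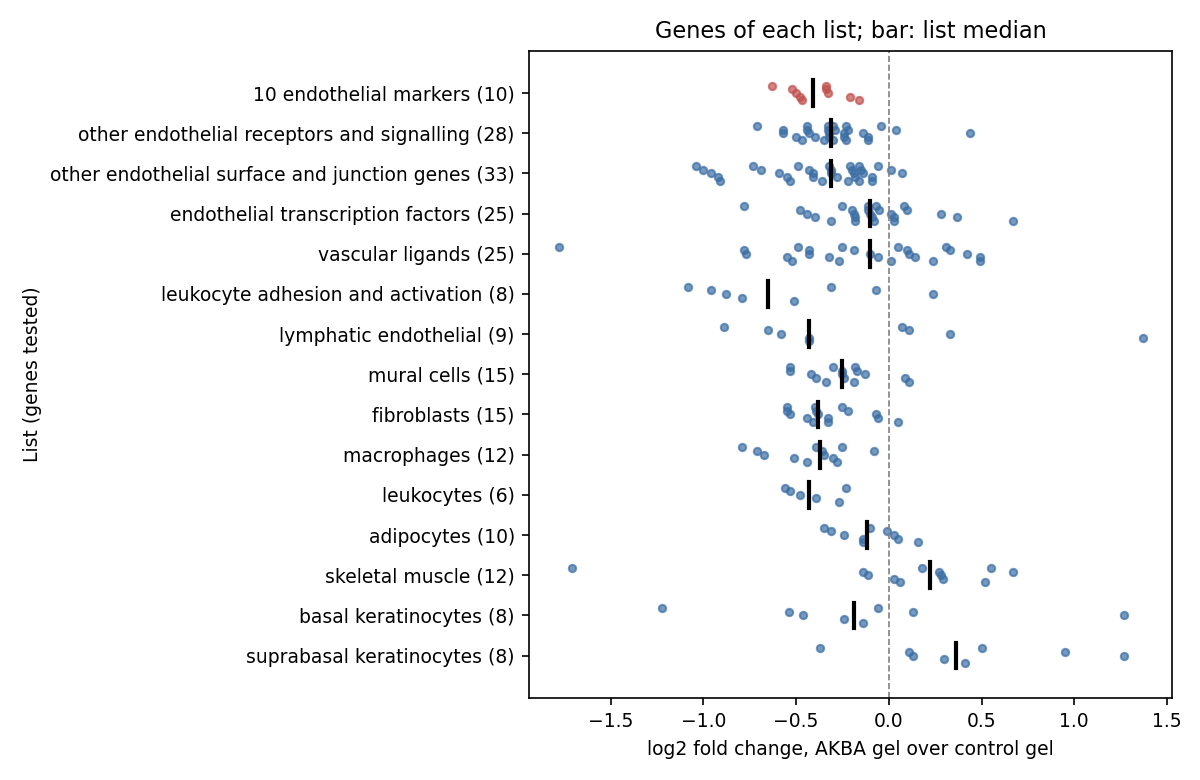
Log2 fold change (AKBA gel relative to control gel) for each tested gene (points) of the endothelial markers (red) and of 14 further lists (blue), with a black bar at each list's median. The 10 endothelial markers all lie between -0.63 and -0.16, and the suprabasal keratinocyte list has a median of 0.36.

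Genes whose course over the 6 libraries was most like that of the 10 markers were found among the 12251 other genes with a mean of at least 5 CPM. Likeness was the root mean square difference, in log2 units, between a gene's centred profile and the mean centred profile of the markers. It was 0.358 at the median of these genes and between 0.0743 (Tie1) and 0.179 (Vwf) for the markers themselves, which are part of the mean they are compared with. The 10 most like were Dennd1c (0.0346), Cd93 (0.0373), Mmrn2 (0.0524), Mctp1 (0.0626), Plin4 (0.0642), Robo4 (0.0723), Tnxb (0.0729), Zc3h12c (0.0753), Slc1a5 (0.0815) and Gm6768 (0.0839). Cd93, Mmrn2 and Robo4 are themselves endothelial genes. Cd93, a C-type lectin-like receptor, stood at 49.5, 44.1 and 55.7 CPM with control gel and 45.4, 27.1 and 39.4 CPM with AKBA gel, so that AKBA gel replicate 2 was lowest and control gel replicate 3 highest. Of the 100 most like genes out of 12251, 10 came from the 26 receptor and signalling genes at that level and 4 from the 31 surface genes. The 20 transcription factors gave 2, the 12 macrophage genes 2, and the 21 ligands, 8 lymphatic, 15 fibroblast and 10 adipocyte genes 1 each. The lists share some genes, Flt4 being in both the receptor and the lymphatic list, so a gene can be counted more than once. The 13 mural genes and the other lists gave 0.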

How the data were processed

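The genes and gene lists were chosen with earlier results of these data known. Per the submitters' processing notes the tools included edgeR, RSEM and CASAVA 1.8, with build GRCm38; no source used here gives their roles or the annotation release. The authors deposited whole-number counts per gene and library, their FPKM values, and their own comparison holding for each gene a log2 fold change, its p-value and an FDR, by a method not stated. FPKM served only to set genes against each other. Control and AKBA columns were assigned by the sample descriptions.

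Counts were tested with edgeR 4.0.16 in R 4.3.3: TMM scaling, the default low-count filter, a quasi-likelihood F test with p-values adjusted by Benjamini-Hochberg and called below 0.05. The fit was also run on simulated data with planted changes, at the spread of these data and at a lower spread. The outcome is not reported here. SE is the log2 fold change divided by the square root of F. CPM uses TMM-scaled library sizes; log2 CPM adds a prior count of 2. For 3 counts the floor is 0.128 to 0.159 CPM, which covers counting error only. Named genes were the 10 markers, the 3 most abundant genes of each of 18 further lists, any called gene, and the 10 most like genes; others were named after their values were seen or for being near 0 counts. Lists are described by counts and medians without a test. The result of 1 list is not reported here. Alternatives were DESeq2 1.42.0, 3 other scalings, 2 other filters, a replicate block and each library left out. Positions are from GENCODE M21, promoters from RefSeq.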

Additional observations from a re-analysis of the deposited data

How the results depend on the processing

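In 13 alternatives no endothelial marker reached an adjusted p of 0.05, the range over all 10 being 0.0629 (Flt1, DESeq2) to 0.962 (Kdr, without AKBA gel replicate 2). Of the single-gene directions only that of Kdr turned, to 0.04 without AKBA gel replicate 2 (range with 1 library left out -0.29 to 0.04), and the cause was not tested. DESeq2 called 285 genes where edgeR called 0. With 1 library left out edgeR called 0 to 14 genes, the 14 without control gel replicate 1. The median of the 10 markers was then between -0.55 and -0.21, the number at an unadjusted p below 0.05 and lower with AKBA gel 1 to 5, and the number without overlap 4 to 8, the 8 without control gel replicate 2. A share of all genes was counted only without AKBA gel replicate 2. It was 3.76% at that unadjusted p, and 11.7% without overlap beside 9.1% with all 6 libraries. The numbers with another library left out, the 8 included, have no such share beside them. With the other scalings the median was -0.41, -0.39 and -0.37, while the median of all genes stayed within 0.034 of 0. Same-numbered libraries share only a number: their deviations from the group means correlated at 0.0724, 0.0185 and -0.327 across genes. With a replicate block the median of the 10 markers was -0.43, and 0 passed the adjusted threshold. In that fit 7 had an unadjusted p below 0.05, but the share of all genes was not counted there.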

Other observations

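The lists of other cell types in the same libraries had medians on both sides of 0, several of which rested on 1 library. Ranges given with the medians are those with 1 library left out. Adipocyte genes had a median log2 fold change of -0.12 (range -0.29 without control gel replicate 2 to 0 without control gel replicate 1; 7 of 10 below 0; Lpl -0.10 ± 0.23, Cfd 0.03 ± 0.22, Fabp4 -0.14 ± 0.18, SE), and skeletal muscle genes 0.22 (range 0.01 without control gel replicate 2 to 0.43 without control gel replicate 1, and 0.03 without AKBA gel replicate 2; 3 of 12 below 0; Acta1 0.28 ± 0.27, Myh1 0.67 ± 0.26, Ttn -0.14 ± 0.25, SE). Basal keratinocyte genes had a median of -0.19 (range -0.30 without control gel replicate 1 to -0.06 without control gel replicate 3; 6 of 8 below 0; Krt14 -1.22 ± 0.45, Krt5 -0.24 ± 0.26, Col17a1 0.13 ± 0.16, SE), and suprabasal genes 0.36 (range 0.13 without control gel replicate 2 to 0.54 without AKBA gel replicate 3, and 0.22 without AKBA gel replicate 2; 1 of 8 below 0; Krt1 0.50 ± 0.34, Krt10 0.95 ± 0.38, Lor 1.27 ± 0.42, SE). Haemoglobin and other erythroid genes had a median of 0.26 over 6 genes (Hbb-bs 0.29 ± 0.31, Hba-a1 0.26 ± 0.32, Hbb-bt 0.31 ± 0.30, SE), with each fold change about as large as its SE. This median came to -0.14 without AKBA gel replicate 1, 0.11 without control gel replicate 2 and 0.47 without AKBA gel replicate 3. The 4 platelet genes tested had a median of -0.19, which came to -0.53 without AKBA gel replicate 1, -0.43 without AKBA gel replicate 2, -0.32 without AKBA gel replicate 3, -0.54 without control gel replicate 1, 0 without control gel replicate 3, -0.42 when 5 CPM was required in 3 libraries and -0.54 with no filter (Pf4 -0.43 ± 0.19, Gp1bb 0.06 ± 0.20, Itga2b -0.54 ± 0.27, SE). Melanocyte genes had a median of 0.05 (range -0.31 without AKBA gel replicate 3 to 0.35 without control gel replicate 2; Dct 0.06 ± 0.43, Tyrp1 0.05 ± 0.45, Pmel 0.02 ± 0.44, SE). None of these genes passed the adjusted threshold in edgeR, and DESeq2 called 2 genes of these lists, Krt15 (log2 fold change 1.27 ± 0.38 (SE), DESeq2 adjusted p = 0.0301) and Lor (DESeq2 adjusted p = 0.0414).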
